A study of Rattus norvegicus with 24 samples.

Results

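Slc1a2 encodes the sodium-coupled glutamate transporter known in rodents as GLT-1 and in humans as EAAT2. It was followed here in RBEC4, a line of rat brain endothelial cells, after exposure to silver nanoparticles. It is 1 of 13337 named genes on the Illumina array, and it was read by 1 of 22523 probes, which was detected on all 24 arrays. Slc1a2 was chosen by its measured differences from control: it had the largest rise and was the 1 gene called with the small citrate-coated particles. All its differences between groups are therefore given as a description without a test.

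All arrays came from RBEC4 cells, labelled as rat blood-brain barrier cells and exposed at 95% confluence for 18 h. Control cells received no particles. The other groups received 1 ppm of silver particles coated with polyvinylpyrrolidone (PVP) at 10 nm (PVP10) or 75 nm (PVP75), or coated with citrate at 10 nm (citrate10) or 75 nm (citrate75). There were 4 control arrays and 5 arrays for each particle, spread unevenly over 2 BeadChips that both held all 5 groups. Arrays are numbered within a group, but separate cultures are not mentioned in the labels. A p-value here therefore covers the spread from array to array and no more, and that spread may be technical.

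Glutamate transporters of the SLC1 family carry glutamate into cells against its gradient, driven by sodium. In the brain, Slc1a2 is best known from astrocytes, where it clears glutamate released at synapses. Brain endothelial cells are known to carry glutamate transporters on the side that faces the brain, which is held to move glutamate towards the blood. Related members of the family carry neutral amino acids such as glutamine instead.

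Per the RefSeq table of GRCr8, rat Slc1a2 lies on chromosome 3 from 109460109 to 109590445, over 130337 bases on the plus strand, with 6 annotated transcripts. The promoter table gives it 2 start sites, 47838 bases apart, and 1 probe does not say which of them was used. Both windows are shown because they are where the transcript measured here could begin. Each runs from 250 bases before a start to 50 after it, with the GC box GGGCGG in capitals where it occurs on either strand.
Upstream start, GRCr8 chr3:109459859-109460158, plus strand: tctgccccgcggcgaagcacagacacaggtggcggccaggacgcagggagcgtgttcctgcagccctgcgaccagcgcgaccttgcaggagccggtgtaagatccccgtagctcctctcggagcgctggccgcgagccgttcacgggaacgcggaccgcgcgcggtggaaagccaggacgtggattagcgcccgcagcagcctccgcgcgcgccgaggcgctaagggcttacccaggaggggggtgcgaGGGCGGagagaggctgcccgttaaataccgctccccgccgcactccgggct
Downstream start, GRCr8 chr3:109507697-109507996, plus strand: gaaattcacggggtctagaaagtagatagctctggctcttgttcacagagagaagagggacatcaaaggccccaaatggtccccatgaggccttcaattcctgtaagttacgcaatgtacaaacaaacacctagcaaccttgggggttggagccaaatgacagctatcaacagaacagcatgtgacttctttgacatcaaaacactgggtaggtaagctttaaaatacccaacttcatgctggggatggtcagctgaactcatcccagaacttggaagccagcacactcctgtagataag

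The upstream window was rich in G and C (71.0%) and the downstream one was not (46.3%). The upstream window held 1 GC box, a motif found in 33.1% of 33469 rat promoter windows of the same length, and the downstream window held 0. Neither window held the antioxidant response core TGACNNNGC, which 12.1% of all windows hold, or the metal response core TGCNCNC, which 49.6% hold, on either strand. The same was true of the YY1 core CCATNTT (18.3% of windows), the cyclic AMP response element TGACGTCA (1.83%), the E-box CACGTG (6.42%) and the NF-kB consensus (4.18%). These counts describe the letters in 300 bases and nothing beyond them.

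The deposited signal of Slc1a2, in linear units before any correction, was low and even in control cells. It was 121, 114, 120 and 119 on control replicates 1 to 4, with a mean of 118 ± 2.80 (SD, n = 4). In citrate75 it was 123, 119, 122, 140 and 137 (mean 128 ± 9.63, n = 5). These groups overlapped, and all their arrays lay close to the weakest signals that the array calls detected.

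The other particles gave clearly higher signals. In citrate10 the signal was 165, 170, 217, 256 and 229 on replicates 1 to 5 (mean 207 ± 38.9, SD, n = 5). In PVP75 it was 518, 424, 498, 490 and 623 (mean 511 ± 72.3, n = 5), and in PVP10 it was 840, 705, 915, 1168 and 570 (mean 840 ± 226, n = 5). Every citrate10 array was above every control and citrate75 array and below every PVP75 array, while PVP75 and PVP10 overlapped through the lowest PVP10 array. In bulk RNA, more transcript per cell and more cells that carry the transcript cannot be told apart.

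**Figure D1:**
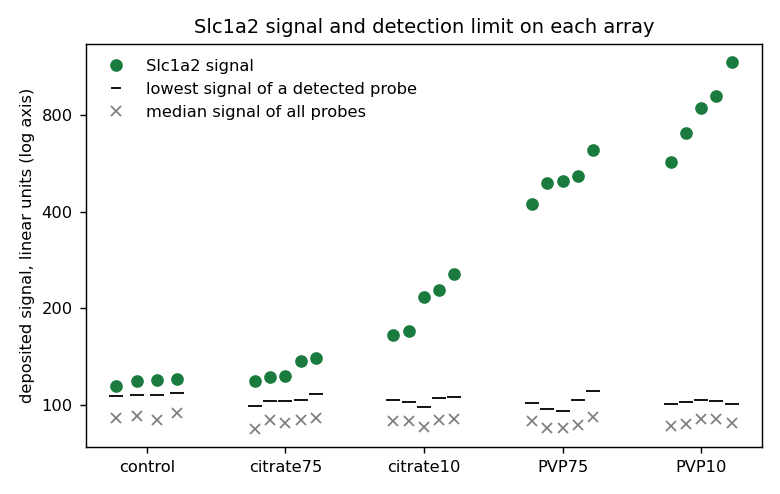
Deposited Slc1a2 signal on each of the 24 arrays (green circles, linear units on a log axis), sorted by signal within each group, with the lowest signal of a detected probe (black bars) and the median signal of all probes (grey crosses) on the same array. Control signals, between 114 and 121, sit just above the detection limit, while PVP10 signals reach 1168.

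On each array the Slc1a2 signal was set against the lowest signal of any probe with a detection p under 0.01. In control cells the ratio was between 1.07 and 1.12, and in citrate75 between 1.19 and 1.32. It lay between 1.60 and 2.42 in citrate10, between 4.18 and 5.63 in PVP75 and between 5.66 and 11.6 in PVP10. The detection limit itself hardly moved, with group means between 102 and 107, and the median signal of all probes had group means between 87.4 and 91.9. The control level was thus close to the limit, and every fold against it depends on how background is removed.

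After background correction and quantile normalization, the same order was seen on the log2 scale. The normalized log2 level was 5.36, 5.25, 5.44 and 5.41 in control replicates 1 to 4, with a mean of 5.36 ± 0.084 (SD, n = 4). It was 5.40, 5.85, 5.63, 5.74 and 5.72 in citrate75 (mean 5.67 ± 0.17, n = 5). Citrate75 lay higher on average, with 4 of 5 arrays above every control array, but the groups overlapped.

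In citrate10 the normalized log2 level was 6.71, 6.75, 7.32, 7.39 and 7.13 (mean 7.06 ± 0.32, n = 5). In PVP75 it was 8.78, 8.72, 9.08, 8.95 and 8.51 (mean 8.81 ± 0.22, n = 5). In PVP10 it was 9.43, 9.61, 9.80, 10.19 and 8.77 (mean 9.56 ± 0.53, n = 5). The order of the means was control, citrate75, citrate10, PVP75 and PVP10. Neighbours did not overlap between citrate75 and citrate10, where 5.85 faced 6.71, or between citrate10 and PVP75, where 7.39 faced 8.51. They overlapped at both ends of the order, with 4 of 5 PVP10 arrays above every PVP75 array.

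**Figure D2:**
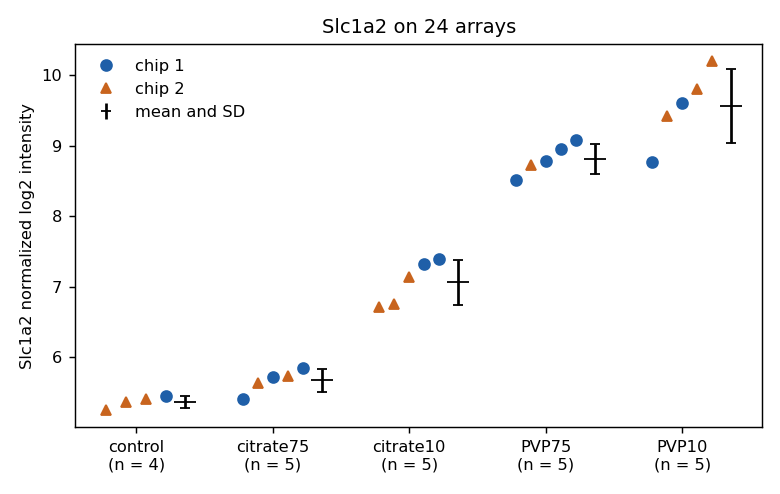
Normalized log2 intensity of Slc1a2 on each array by group, with chip 1 as blue circles, chip 2 as orange triangles, and the group mean with its SD in black. The groups rise from control (mean 5.36) to PVP10 (mean 9.56), and the PVP10 arrays spread most.

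The normalization changed the order of arrays within a group. PVP75 replicate 5 had the highest deposited signal of its group (623) but the lowest normalized log2 level (8.51), and its value in the authors' normalized table (443) was also the lowest of the 5. The authors' values otherwise gave the same order of groups, with means of 115 in control, 125 in citrate75, 211 in citrate10, 531 in PVP75 and 875 in PVP10.

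Slc1a2 varied more between arrays than most genes did in every particle group, and most of all with the small particles. Its SD of the log2 level in PVP10 was 0.53, against a median of 0.15 over the 2748 tested entries (1 per named gene or unnamed transcript, detected on at least 4 arrays), and 1 entry was more variable. In citrate10 its SD was 0.32, against a median of 0.15, and 38 entries were more variable. In PVP75 its SD was 0.22, against a median of 0.18, and in citrate75 0.17 against 0.15, with 912 and 1143 entries more variable. In control cells its SD of 0.084 was below the median of 0.13, at a level close to the detection limit.

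The chips did not share one direction of this spread. Citrate10 arrays had a mean log2 level of 7.36 on chip 1 (n = 2) and 6.86 on chip 2 (n = 3), without overlap. PVP10 arrays went the other way, with 9.19 on chip 1 (n = 2) and 9.81 on chip 2 (n = 3), and here the chips overlapped. PVP75 had 8.83 on chip 1 (n = 4) and 8.72 on its lone chip 2 array, and citrate75 had 5.66 (n = 3) and 5.68 (n = 2). Whether chip or another difference between the arrays goes with this spread was not tested.

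The comparison of PVP75 with citrate75 asks whether the coating mattered at the large size. Slc1a2 was 8.83-fold higher with PVP (log2 difference 3.14, SE 0.17, 95% interval 2.79 to 3.50). The lowest of the 5 PVP75 arrays (8.51) lay above the highest of the 5 citrate75 arrays (5.85). On chip 1 alone, with 4 PVP75 and 3 citrate75 arrays, the log2 difference was 3.18. The gene was chosen with its high level in PVP75 known, so this difference too is a description, and no test is given for it. The 95% intervals given here and below do not allow for that choice.

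The remaining differences are estimates from the same fit. Against control, the log2 difference was 4.19 (SE 0.18) in PVP10, 3.45 (SE 0.19) in PVP75, 1.70 (SE 0.18) in citrate10 and 0.30 (SE 0.19) in citrate75. The median over all tested entries was -0.01 in both PVP comparisons. The estimate for citrate75 had a 95% interval from -0.08 to 0.69. All of these comparisons use the same 4 control arrays.

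The PVP coating went with the higher level at both sizes. At 10 nm, Slc1a2 was higher with PVP than with citrate by 2.50 (SE 0.17) on the log2 scale, next to 3.14 at 75 nm. On chip 1 the 10 nm difference was 1.83 and on chip 2 it was 2.94. At 10 nm the gene ranked 2 by rise among the 2748 entries, after Sqstm1, the autophagy receptor gene, at 2.95. This rank is not independent of the choice of Slc1a2 for its rise.

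The small size went with the higher level within both coatings. Slc1a2 was higher in citrate10 than in citrate75 by 1.39 (SE 0.17) on the log2 scale. That was the largest rise in that comparison, ahead of an unnamed probe at 0.87. The gene was chosen partly for its rise in citrate10, so this rank partly repeats the choice. Slc1a2 was higher in PVP10 than in PVP75 by 0.75 (SE 0.18), where it ranked 34. On chip 1 alone the PVP difference was 0.36 (SE 0.21), and leaving out single arrays moved it between 0.61 and 1.01. The PVP size difference was smaller than the citrate one by 0.64 (SE 0.24) on this scale. Without background correction they were 0.65 and 0.74, nearly equal.

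**Figure D3:**
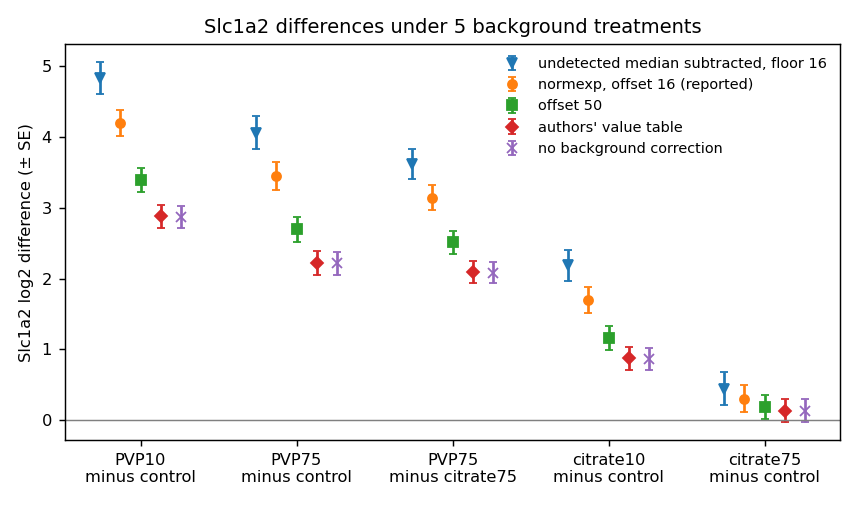
Slc1a2 log2 differences with their SE (from the limma fit over 24 arrays) in 5 comparisons, under 5 treatments of the background. All treatments keep the order of the comparisons, while the size for PVP10 minus control runs from 2.87 without correction to 4.84 with the undetected median subtracted.

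The fold against control moved with the background treatment more than with any single array. For PVP10 it was 18.3-fold in the fit used here, 7.30-fold without background correction and 28.5-fold with the median of the undetected probes subtracted. For citrate10 these values were 3.24-fold, 1.82-fold and 4.55-fold. Leaving out single arrays kept the PVP10 log2 difference between 4.02 and 4.39.

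Other transporters of the SLC1 family were looked up on the same arrays. Of the 6 other members listed, 5 had a named probe and 2 of these were tested, next to 14.6% of all named genes. Slc1a1 and Slc1a3, the other broadly known glutamate transporters, and Slc1a4, a neutral amino acid transporter, were detected on 0 arrays, and their signals stayed between 80.4 and 103. Slc1a6, known from cerebellar Purkinje neurons, was detected on 9 arrays, at most 2 in a group, and was called in no comparison. An undetected probe does not show that the transcript was absent.

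Slc1a5, which encodes the glutamine and neutral amino acid carrier ASCT2, was detected on all 24 arrays by 1 of its 2 probes. Its log2 level lay between 10.61 and 10.83 in control, 10.71 and 10.83 in citrate75, 10.62 and 10.91 in citrate10, 10.99 and 11.22 in PVP75, and 10.95 and 11.17 in PVP10. All arrays of both PVP groups lay above all other arrays, but how common this is among all entries is not given here. By limma Slc1a5 rose by 0.39 in PVP10 (SE 0.083, adjusted p = 0.00031) and by 0.38 in PVP75 (SE 0.088, adjusted p = 0.00816) against control. It was also higher in PVP75 than in citrate75, by 0.31 (adjusted p = 0.00788). Its difference from control was 0.07 in both citrate groups. The PVP75 call against control was lost without control replicate 3 (adjusted p = 0.0745) and when only both compared groups entered the fit (adjusted p = 0.135).

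Counts over 8 lists of genes around glutamate were set beside the whole array, with lists chosen with earlier results of these data known. They hold 114 genes besides Slc1a2, of which 94 had a named probe and 18 were detected on at least 4 arrays. In PVP10 against control, where limma called 41.8% of all tested entries (20.1% higher and 21.7% lower), 5 of the 18 rose and 6 fell, with a median of -0.11. In PVP75, where 5.42% of all entries were called (2.62% higher and 2.8% lower), 4 rose and 1 fell, with a median of 0.03. In PVP75 against citrate75, where 14.1% were called (6.55% higher and 7.57% lower), 4 were higher and 2 lower, also with a median of 0.03. In citrate10 (0.0364% of all entries called) and citrate75 (0% called), 0 of the 18 were called. The called genes did not share a direction. Without background correction all 22 called differences of these genes kept their call, but 11 were over 1.5 times smaller. In PVP10 these were Slc17a6 (-0.35), Gfpt1 (0.44), Creb1 (-0.22), Yy1 (0.24), Akt1 (-0.12) and Gad2 (-0.14), and in the PVP75 comparisons Gfpt1, Gsto1 and Akt1.

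**Figure D4:**
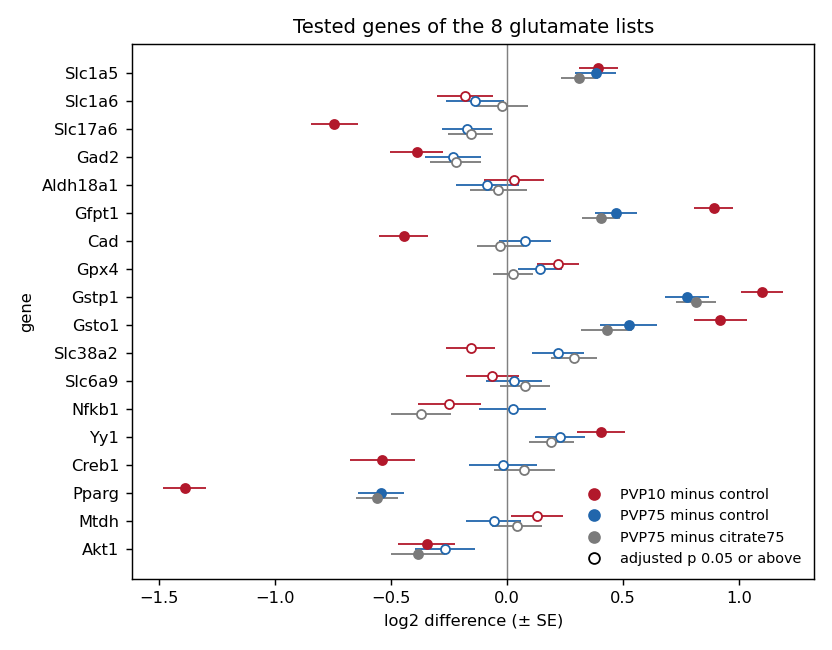
Log2 differences with their SE for the 18 tested genes of the glutamate lists in PVP10 minus control (red), PVP75 minus control (blue) and PVP75 minus citrate75 (grey), with open circles where the limma adjusted p was 0.05 or above. Gstp1 lies farthest to the right and Pparg farthest to the left. Gad2 was detected on 0 PVP10 and 0 PVP75 arrays.

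Among genes that load glutamate into vesicles, Slc17a6, which encodes VGLUT2, was detected on all 24 arrays. Its log2 level was 6.36 ± 0.14 (SD, n = 4) in control and 5.59 ± 0.13 (n = 5) in PVP10. The ranges did not overlap, at 6.20 to 6.48 against 5.45 to 5.79, but how common this is among all entries is not given here. Slc17a6 fell by 0.74 (SE 0.10, limma adjusted p = 6.63e-07). It was not called in PVP75 (-0.17, adjusted p = 0.413). Of the glutamate receptor genes, 20 had a named probe and 1 of these was detected on any array, on 2 arrays. Thus 0 of the 20 were tested, next to 14.6% of all named genes.

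Of 16 glutamate and glutamine metabolism genes on the array, 4 were tested. Gfpt1, whose enzyme uses glutamine to start the hexosamine pathway, rose in PVP10 by 0.89 (limma adjusted p = 1.22e-09) and in PVP75 by 0.47 (adjusted p = 0.00127). It was higher in PVP75 than in citrate75 by 0.40 (adjusted p = 0.00115). Cad, whose enzyme uses glutamine to start pyrimidine synthesis, fell in PVP10 by 0.45 (adjusted p = 0.00112) and was at 0.08 in PVP75. Gad2, which turns glutamate into GABA, was called lower in PVP10 (adjusted p = 0.00717). Its probe passed detection on 2 control arrays and 0 PVP10 arrays, so its fold had no bound above 1. The call was lost without control replicate 3 (adjusted p = 0.0615), with median scaling (adjusted p = 0.153) and with the undetected median subtracted (adjusted p = 0.557). Aldh18a1, for proline synthesis from glutamate, was not called in PVP10 (0.03, adjusted p = 0.90).

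Of the 12 genes of cystine exchange and glutathione on the array, 3 were tested. Gstp1 and Gsto1, which encode glutathione transferases, rose in PVP10 by 1.10 and 0.92 and in PVP75 by 0.78 and 0.52. Both were also higher in PVP75 than in citrate75, by 0.81 (limma adjusted p = 1.2e-07) and 0.43 (adjusted p = 0.00802). The Gsto1 call in PVP75 against control was lost with no detection filter (adjusted p = 0.0518) and with only both compared groups in the fit (adjusted p = 0.0651), and that against citrate75 on chip 1 alone (adjusted p = 0.0503). Gpx4, which encodes a lipid peroxidase, was at 0.22 in PVP10 (adjusted p = 0.0513). The cystine and glutamate exchanger gene Slc7a11 and its partner Slc3a2 were detected on 0 arrays. Both amino acid carrier genes that were tested, Slc38a2 and Slc6a9, were not called in any of the 5 comparisons. Of 9 sodium pump genes, 0 were tested, next to 14.6% of all named genes.

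Of 16 genes on the array that are reported as regulators or partners of Slc1a2, mostly from astrocytes, 6 were tested. Yy1, known as a repressor of Slc1a2 in astrocytes, rose in PVP10 by 0.41 (limma adjusted p = 0.00184) and was at 0.23 in PVP75 (adjusted p = 0.246). Creb1, whose protein is known to activate it there, fell in PVP10 by 0.54 (adjusted p = 0.00235) and was at -0.02 in PVP75. Pparg, a nuclear receptor gene, fell in PVP10 by 1.39 and in PVP75 by 0.54, and was lower in PVP75 than in citrate75 by 0.56 (adjusted p = 8.1e-05). Pparg was among the genes that lost a call when values were recomputed under other settings. Nfkb1 and Mtdh were not called in PVP10 (-0.25 and 0.13). Akt1 was called lower in PVP10 (-0.35, adjusted p = 0.0227) and in PVP75 against citrate75 (-0.38, adjusted p = 0.0235). Akt1 was detected on 2 of 5 PVP10 arrays. Both calls were lost with chip as a random block (adjusted p = 0.0538 and 0.0598), with no chip term (0.0568 and 0.0636), with median scaling (0.0885 and 0.0645) and with no detection filter (0.153 and 0.149). Its first call was lost without control replicate 3 (adjusted p = 0.0909) and without PVP10 replicate 2 or 3 (adjusted p = 0.0505 and 0.0684). Its second call was lost without PVP75 replicate 1, 3 or 4 (adjusted p = 0.082, 0.0532 and 0.057) and without citrate75 replicate 1 or 5 (adjusted p = 0.055 and 0.0771).

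Markers of astrocytes, the cells best known for Slc1a2, were looked for in the same arrays. Besides Slc1a2, 9 astrocyte markers had a named probe, among them Gfap, Aqp4, Slc1a3 and Gja1, and all 9 were detected on 0 of 24 arrays. Their summed signal lay between 809 and 839 in control, 751 and 814 in citrate75, 759 and 817 in citrate10, 750 and 825 in PVP75, and 772 and 805 in PVP10. These ranges are those of as many probes at the array median, which would give 809 to 849 in control and 775 to 815 in PVP10. The pericyte, fibroblast, microglia and oligodendrocyte markers on the array were likewise detected on 0 arrays. Of all named genes, only 14.6% were tested, so counts of 0 in short lists tell little. An undetected probe does not show that a transcript was absent. Of 8 neuron markers with a named probe, Nefm was detected on 23 arrays and Rbfox3 on 8. Both lay near the detection limit, with log2 group means of 5.11 to 5.37 and 4.82 to 4.99. The others, among them Syp, Snap25 and Tubb3, were detected on 0.

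The endothelial label was checked in the same way. Of 14 endothelial markers with a named probe, 2 were tested (14.3%), a share close to the 14.6% of all 13337 named genes. Tjp1 was detected on 24 arrays, Tie1 on 6 and Cldn5 on 1, while 11, among them Cdh5, Vwf, Tek and Flt1, were detected on 0. Between 2128 and 2576 probes were detected per array, so most genes of any cell type gave no signal.

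The genes whose level followed Slc1a2 most closely over the 24 arrays were Gstp1, with a Pearson r of 0.95, and Ptgr1, which encodes a prostaglandin reductase (0.93). Next came the conjugating enzyme gene Ugt1a6 (0.91), the ubiquitin-binding Zfand5 (0.91), the sterol synthesis gene Sqle (0.91) and Gfpt1 (0.90). Me1 for malic enzyme (0.90), Prkaa1 for an AMP-activated kinase subunit (0.90), the vesicle GTPase gene Rab10 (0.89) and the lipase gene Abhd4 (0.89) completed the 10 closest of 1940 named genes. The median absolute r of those genes was 0.41, and the arrays behind every r share groups and chips. The same 10 genes were found without background correction and in the authors' table, and 5 of them by Spearman's rho.

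Of the 10 closest genes, 6 had a citrate75 mean below the control mean, unlike Slc1a2. In citrate10, Slc1a2 was at 1.70 against control on the log2 scale, while the 10 closest genes were at -0.04 (Ugt1a6) to 0.26 (Gfpt1). The 1 entry called there among all 2748 (0.0364%) was Slc1a2, chosen partly for that call. That 0 of the 10 were called therefore tells nothing more about them. These 10 genes rose in PVP10 by 0.60 (Ptgr1) to 1.60 (Zfand5), and in PVP75 by 0.41 (Ptgr1) to 1.08 (Zfand5). They were picked for following Slc1a2 over the same arrays, so a rise with PVP was largely built into the choice. The separation of citrate10 from control, citrate75 and PVP75 on every array was counted over all 2748 entries and held for 1, Slc1a2 itself, which was chosen partly for it. The order of the 5 group means alone was shared by 85 entries, Slc1a2 included, and the opposite order was held by 96.

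**Figure D5:**
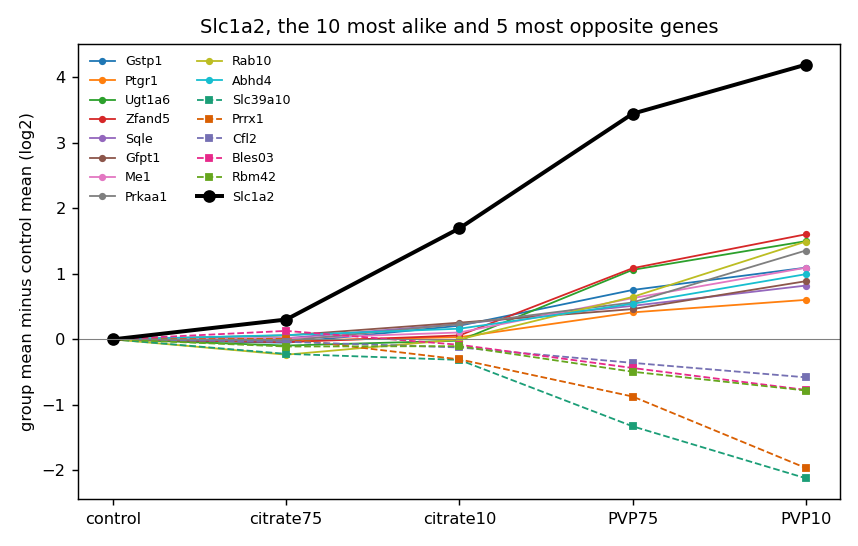
Group means minus the control mean (log2) for Slc1a2 (black), the 10 genes most like it over 24 arrays (solid lines) and the 5 most opposite (dashed lines). Slc1a2 is at 1.70 in citrate10, where the means of the 15 other genes lie between -0.31 (Slc39a10) and 0.25 (Gfpt1).

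The zinc importer gene Slc39a10 ran most opposite to Slc1a2, with an r of -0.93. It was followed by the homeobox gene Prrx1 (-0.90), the actin-severing cofilin gene Cfl2 (-0.90), Bles03 (-0.90) and the RNA-binding Rbm42 (-0.89). In citrate10, Slc39a10 and Prrx1 were both at -0.30 against control, and neither was called (limma adjusted p = 0.996 for both). Slc1a2 was the 1 call in that comparison among all 2748 entries.

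Within groups the company of Slc1a2 was different. After the group and chip means were taken out, the closest genes were S100a13 (r = 0.72), Mybph (0.71), Tspan4 (0.69), Hoxb2 (0.69) and Id1 (0.68), with 18 residual degrees of freedom. They are the highest of 1940 named genes, 49 of which had an r of 0.5 or above, and no test was made. Of the 10 genes closest over all arrays, Ptgr1 came highest at 0.49 and Abhd4 lowest at -0.34. Id1, a regulator of transcription, also followed Slc1a2 over all 24 arrays (r = 0.83) and rose in PVP10 by 0.43 (limma adjusted p = 0.000489). The other 4 within-group genes had an r between -0.20 and 0.25 over all arrays and were not called in PVP10.

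The promoter windows of the closest genes were searched as well, with a window found for 8 of the 10. The antioxidant response core TGACNNNGC, absent from both Slc1a2 windows, was in 3 of these 8 genes (Gstp1, Zfand5 and Me1), while 13.1% of all 27457 genes in the table hold it. The GC box was in 8 of 8, against 36.0% of all genes, and it was also in 4 of the 5 most opposite genes. The metal response core was in 6 of 8 (52% of all genes) and the YY1 core in 2 of 8 (19.8%). The cyclic AMP response element, the E-box and the NF-kB consensus were in 0 of 8. These shares are over all genes in the table and not over the detected genes.

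The genes next to Slc1a2 on chromosome 3 were looked up in the GRCr8 table. Of the 10 protein-coding genes on each side, 14 had a probe and 2 of these were tested (14.3%, next to 14.6% of all named genes). Traf6, a signalling adaptor gene 8 places before Slc1a2, rose in PVP10 by 0.73 (SE 0.10, limma adjusted p = 9.09e-07) and was at 0.11 in citrate10. It was higher in PVP75 than in citrate75 by 0.34 (adjusted p = 0.0183). Apip, which encodes a methionine salvage enzyme 3 places after it, fell in PVP10 by 0.43 (adjusted p = 0.0118). The immediate neighbours Pamr1 and Cd44 were detected on 0 arrays.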

How the data were processed

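The deposited table of signals holds a bead intensity on a linear scale per probe and array, with a detection p-value beside each, per the file headers. These signals carry no background subtraction or normalization. A second deposited table holds intensity values after the authors' normalization, whose quantile form was read from the numbers. The submitters' processing notes name GenomeStudio 2011.1, and other processing is not given in the sources. All array columns were tied to samples through the chip name in the labels, and 0 were unused.

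With limma 3.58.1 in R 4.3.3, background was corrected by normexp (offset 16), for which detection p-values stood in for the negative control beads. Corrected values were put on the log2 scale and quantile normalized. Probes with a detection p under 0.01 on at least 4 arrays were kept (2774), giving 2748 entries with the brightest probe per gene. A linear model with the 5 groups and 2 chips was fitted to 24 arrays with lmFit and eBayes. Benjamini-Hochberg adjustment ran over all kept probes, and an adjusted p under 0.05 is a call. Precision is limited by how many arrays there are. The fit was tested on simulated data. A test of PVP75 against citrate75 was planned for Slc1a2 and is not reported, because its high level in PVP75 was known when it was chosen.

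The gene, the lists and the rule for named genes (every Slc1a2 probe, any kept list member, the 10 most alike, 5 most opposite and 5 most alike within groups, and 10 neighbours on each side) were chosen with earlier results of these data known. Probe names came from the platform annotation, which names 13793 probes and leaves 8730 unnamed. Of the named ones, 13752 were found in the GRCr8 table. Promoter sequences are from RefSeq. The probe's own sequence was not used here.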

Additional observations from a re-analysis of the deposited data

How the results depend on the processing

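The PVP75 to citrate75 log2 difference of Slc1a2 lay between 2.08 (no background correction) and 3.61 (undetected median subtracted) over 23 alternatives. Without single arrays it lay between 3.07 and 3.21. With the replicate block and chip it was 3.14. Same-numbered arrays had a mean r of 0.0105 over 46 pairs, against -0.00289 over 184 pairs with different numbers. Of 24 arrays, 7 correlated best with their own number, and the count expected by chance is not given here. The numbers were not taken as pairs, because the mean r was near that of the other pairs. The estimates against control depend on the background because the control level is near the detection limit. For PVP10, PVP75 and citrate10 in turn they were 2.87, 2.21 and 0.87 without correction, 2.88, 2.22 and 0.87 in the authors' table, 3.39, 2.69 and 1.16 with offset 50, and 4.84, 4.06 and 2.19 with the undetected median subtracted, a setting chosen after seeing the data. The difference of PVP10 and citrate10 was 2.00 in the first and in the second of these, 1.83 on chip 1 and 2.94 on chip 2, and that of citrate10 and citrate75 was 0.74, 0.74, 0.98 and 1.74. On chip 1 PVP10 minus PVP75 was 0.36. Counts of called probes moved with other settings. Probes called in PVP75 against control were 149 in the fit used here. They were 68 with no detection filter and 45 when only the 2 groups compared were fitted. Without single arrays they were between 73 (without control replicate 3) and 151, with 85 without control replicate 4. Those called in PVP75 against citrate75 were 388 in the fit used here and 203 with no detection filter. They were 254 with only the 2 groups and 125 on chip 1. Array weights gave 13 calls for citrate75 against control, where the fit used here gave 0. Called members of the glutamate lists were 2 in PVP75 against control with only the 2 groups and 3 in PVP75 against citrate75 on chip 1. Spearman's rho shared 5 of the 10 genes most like Slc1a2. The cause of these moves was not tested, beyond the fewer arrays or larger number of tests that some settings bring. Of 484 recomputed values for 22 gene differences, 29 lost the call (Akt1, Gad2, Gsto1, Slc1a5 and Pparg) and 0 reversed.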
